A study of Mus musculus with 15 samples.

Results

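The CDR3 loops described here are those of T cell receptor (TCR) alpha chains that end in ALGRLH or in SNYQLI, the ends that the mouse joining segments TRAJ18 and TRAJ33 give to the loop. They were picked by their last 6 residues alone, and they number 2111 of the 92219 distinct CDR3 peptides listed in 15 libraries of CD8+ T cells. Of these, 658 have the TRAJ18 end and 1453 the TRAJ33 end. Each list gives a CDR3 peptide, written without the conserved residues that flank it, and its number of reads. The lists give neither the variable segment nor the nucleotide sequence, and they hold no transcript by which the labelled cell type could be checked.

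Tumour libraries (n = 5) came from CD8b+ CD4neg T cells of prostate tumours in males aged 27 weeks with the genotype TCRbtg TRAMP+/-. TRAMP is a transgene that drives a viral oncogene in prostate epithelium under the probasin promoter. MP libraries (n = 5) came from memory-phenotype cells, sorted as CD8b+ CD4neg CD44hi CD122+ from pooled spleen and lymph nodes of TCRbtg males aged 9 weeks. Naive libraries (n = 5) came from CD8b+ CD4neg CD44lo CD122neg cells of the same tissues, age and genotype. All mice were on a C57BL/6 background and, in every group, carried a transgene for 1 fixed TCR beta chain, so that the receptors differ in the alpha chain. The number of cells per library is not in the labels. Libraries held 547665 to 943699 reads. MP 1 and MP 5 listed 12401 and 13950 distinct CDR3s, against 2216 to 3392 in MP 2, 3 and 4.

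An alpha chain is joined from a variable and a joining segment, and the CDR3 loop spans the join. Residues at the end of the loop come from the joining segment, and nucleotides may be lost or added at the join itself. Invariant natural killer T (iNKT) cells of the mouse carry a nearly fixed alpha chain made with TRAJ18 and recognise lipids bound to CD1d. Mucosal-associated invariant T (MAIT) cells carry one made with TRAJ33 and recognise metabolites of riboflavin synthesis bound to MR1. Conventional T cells use the same joining segments with other variable segments and other loops.

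These loops carry the results below. The first and the seventh are the invariant loops, and the others were abundant or recurred in 1 of the groups. Letters are amino acids in reading order, copied from the deposited lists.
iNKT invariant loop: VVGDRGSALGRLH
leading TRAJ18 loop of MP: AIEDRGSALGRLH
second loop of the same family: AIENRGSALGRLH
loop of the AAS family: AASASSALGRLH
leading TRAJ18 loop of Tumour 3 and Tumour 5: APDRGSALGRLH
a TRAJ18 loop of Naive: ATEEGSALGRLH
MAIT invariant loop: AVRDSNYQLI
leading TRAJ33 loop of Naive: AIEDSNYQLI
TRAJ33 loop of 3 tumours: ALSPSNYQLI
TRAJ33 loop of all tumours: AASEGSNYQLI
Counted from the end, AIEDRGSALGRLH shares 10 of its 13 residues with the iNKT loop, which is also 13 residues long, and differs in the first residues. AIEDSNYQLI and the MAIT loop, both of 10 residues, share the last 7 and the first.

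In these CD8b+ CD4neg cells, nearly all reads with either end belonged to loops other than the invariant ones. Cells outside that sort gate are not covered by the libraries. VVGDRGSALGRLH was listed in none of the Tumour libraries. It had 5, 0, 0, 0 and 4 reads in MP 1 to 5, and 2, 2, 2, 0 and 0 reads in Naive 1 to 5. These counts lie at or near the lowest count that the lists hold, which is 2 reads, and the groups overlapped. In every library at most 0.280% of the TRAJ18-end reads were the iNKT loop. Its share of all reads averaged 0.000230 ± 0.000315% in MP and 0.000200 ± 0.000185% in Naive (SD, n = 5 each). No pair of groups passed the test for this loop (exact two-sided permutation tests, adjusted p = 1 for MP against Naive, 0.667 for Tumour against MP and 0.333 for Tumour against Naive, over 6 tests of the 2 invariant loops).

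The MAIT loop was found in every Naive library but in few of the others. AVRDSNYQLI had 0, 60, 0, 0 and 0 reads in Tumour 1 to 5, 0, 4, 0, 0 and 12 reads in MP 1 to 5, and 92, 101, 73, 33 and 63 reads in Naive 1 to 5. All MP libraries lay below all Naive libraries, and Tumour 2 lay within the range of Naive reads. Its share of all reads was 0.000468 ± 0.000763% in MP and 0.0120 ± 0.00458% in Naive (SD, n = 5 each), lower in MP with an adjusted exact permutation p of 0.0476. In Tumour it averaged 0.00154 ± 0.00345%, lower than in Naive with the same adjusted exact permutation p of 0.0476. With 5 libraries against 4 the smallest exact p is 0.0159, which adjustment over 6 tests takes to 0.0952 where no other test is as small. Leaving out Naive 1, 2, 3 or 5 took the p of either comparison to 0.0952, as did leaving out Tumour 1, 3, 4 or 5 for the second. The quasi-likelihood test of edgeR, fitted over all CDR3s, gave a log2 fold change of -4.63 ± 1.45 (SE) for MP against Naive (adjusted p = 0.0193) and of -2.95 ± 1.69 for Tumour against Naive (adjusted p = 0.122). In both comparisons the loop could meet the count minimum of edgeR only through Naive libraries. That minimum thus favoured a lower value outside Naive, and the edgeR values are no support for one. Of all CDR3s tested, 48.1% were lower in MP and 86.7% lower in Tumour than in Naive. Their median fitted log2 fold changes were -3.35 and -7.42, so that a fall from Naive was not particular to this loop.

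Even in Naive libraries the MAIT loop was a small share of its end. It took 0.578 to 2.10% of TRAJ33-end reads there, at most 0.353% in MP and 0.897% in Tumour 2. The other 22 loops that differ from it by 1 residue had 22 reads over all Tumour, 140 over all MP and 417 over all Naive libraries, against 60, 16 and 362 reads of the loop itself. Loops that keep AV and DSNYQLI with any residue between them had 81 to 152 reads in Naive libraries, from 2 to 8 different peptides each. Such loops had 60 reads in Tumour 2 and none in the other tumours, and 38, 4, 0, 36 and 38 reads in MP 1 to 5. Both invariant loops were matched by peptide only. Whether the cells that gave these reads were iNKT or MAIT cells was not tested. In reads of bulk RNA, fewer cells with a loop and less receptor RNA per cell cannot be told apart.

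The TRAJ18 end took a larger share of reads in MP than in Naive cells. It took 0.490, 1.45, 0.393, 0.413 and 0.443% of all reads in MP 1 to 5, against 0.138, 0.151, 0.124, 0.115 and 0.117% in Naive 1 to 5. The lowest MP library was above the highest Naive library, and MP 2 stood apart above the other MP libraries. The means were 0.637 ± 0.454% in MP and 0.129 ± 0.0154% in Naive (SD, n = 5 each), a ratio of 4.93 (exact two-sided permutation test, adjusted p = 0.0119 over the 39 joining segment ends that could be told apart). Without MP 2 the difference was 0.306 in place of 0.508 percentage points, and its adjusted exact permutation p stayed below 0.05. Of the 39 segments, 23.1% were higher and 53.8% lower in MP by this test. The ratio of TRAJ18, a log2 value of 2.30, was the highest of the 39 with all libraries, and ranked 4 without MP 2 (a log2 value of 1.75). By number of distinct CDR3s, TRAJ18 made up 0.967 ± 0.310% of MP and 0.497 ± 0.0517% of Naive lists (adjusted exact permutation p = 0.0221). Counted this way, 10.3% of the 39 segments passed as higher in MP and 28.2% as lower.

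Tumours were uneven in this end. It took 0.105, 0.142, 0.470, 0.455 and 0.703% of reads in Tumour 1 to 5. Tumour 1 lay below all Naive libraries, Tumour 2 within them, and Tumour 3, 4 and 5 above them. The mean was 0.375 ± 0.250% (SD, n = 5), and the difference was 0.246 percentage points from Naive (adjusted exact permutation p = 0.173) and -0.263 points from MP (adjusted exact permutation p = 0.493). Without MP 2 the second difference was -0.0601 points. In Tumour against Naive, 2.56% of the segments were higher and 30.8% lower, and in Tumour against MP 7.69% were higher and 15.4% lower. Tissue, age, genotype and sort gate differ between Tumour and the other groups, and cannot be told apart.

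**Figure D1:**
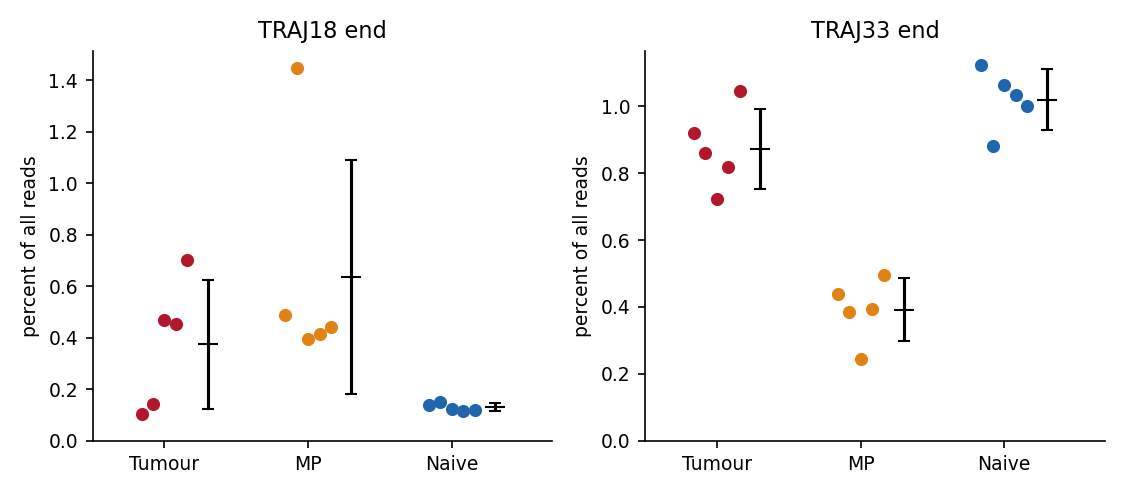
Share of all reads (percent, linear axis from 0) that end in the TRAJ18 end (left) and the TRAJ33 end (right). Each point is 1 library, and the bar beside the points gives the mean and SD of 5 libraries. MP 2 stands at 1.45% for TRAJ18, and the MP libraries lie below all others for TRAJ33.

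The make-up of the TRAJ18 end is described without a test. In Naive libraries it was a mixture of many loops at low read numbers, in MP it was led by 1 family of sequences, and in tumours by a few loops that changed from tumour to tumour. The number of equally abundant loops that would give the same Shannon entropy, called the effective number, was 3.38, 8.20, 2.54, 8.26 and 1.67 in Tumour 1 to 5. It was 18.9, 6.78, 3.34, 8.23 and 25.8 in MP 1 to 5, and 103, 47.5, 95.7, 73.4 and 78.5 in Naive 1 to 5. All Naive libraries were above all MP and Tumour libraries, while MP and Tumour overlapped. For the TRAJ33 end it was 9.72, 14.8, 4.88, 5.17 and 2.33 in Tumour 1 to 5, 77.1, 16.1, 11.0, 16.6 and 93.2 in MP 1 to 5, and 75.9, 47.3, 59.2, 69.7 and 77.2 in Naive 1 to 5. There all tumours lay below all Naive libraries, and MP 1 and MP 5 stood apart from the other MP libraries. Over the 39 segments, the median effective number was 6.53 in Tumour, 29.7 in MP and 92.0 in Naive. In the same order, the means were 4.81, 12.6 and 79.6 for TRAJ18, and 7.39, 42.8 and 65.9 for TRAJ33. The fall from Naive to Tumour was thus not particular to these ends. For TRAJ18, with loops of fewer than 10 reads left out, the Naive mean was 15.1 in place of 79.6, and the MP mean 8.93 in place of 12.6. The number of cells behind each library is not known, and its part in these values was not tested.

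**Figure D2:**
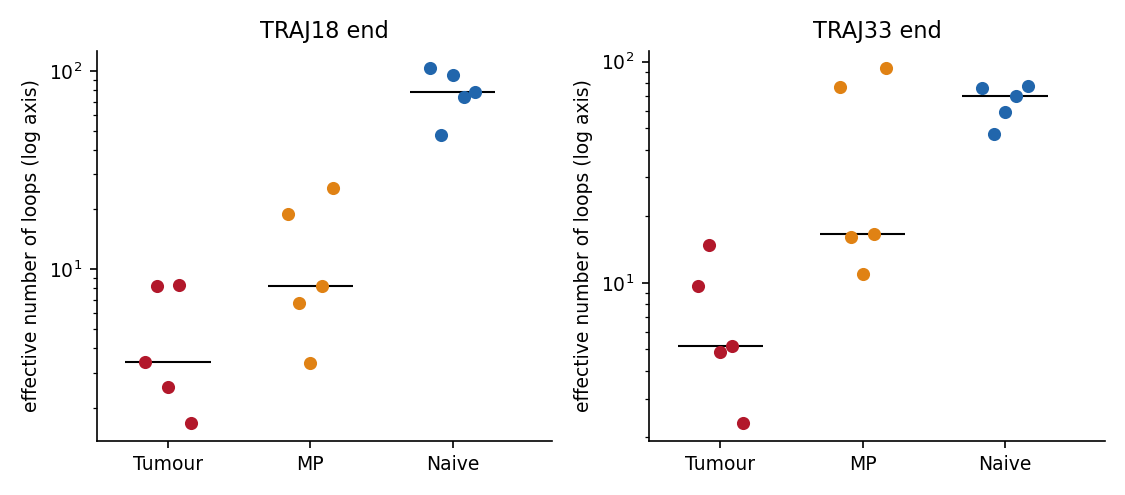
Effective number of loops (log axis) with the TRAJ18 end (left) and the TRAJ33 end (right). Points are libraries and the line is the median of 5. For TRAJ33, MP 1 and MP 5, at 77.1 and 93.2, lie with or above the Naive libraries, and the other MP libraries lie between 11.0 and 16.6.

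AIEDRGSALGRLH was the most abundant TRAJ18 loop of every MP library. It had 0, 332, 0, 9 and 0 reads in Tumour 1 to 5, 1654, 5624, 1861, 858 and 1063 reads in MP 1 to 5, and 0, 14, 2, 0 and 0 reads in Naive 1 to 5. Every MP library exceeded every Naive library, and Tumour 2 and Tumour 4 also held the loop. It took 35.1 to 70.7% of the TRAJ18-end reads of an MP library. Its mean share of all reads was 0.319 ± 0.288% in MP and 0.000581 ± 0.00112% in Naive (SD, n = 5 each). In edgeR the MP over Naive log2 fold change was 9.07 ± 1.79 (SE), with an adjusted p of 0.00177. For Tumour against MP the log2 fold change was -5.19 ± 2.40 (edgeR adjusted p = 0.0673).

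The loop belongs to a family with A, then I or M, then E, any residue, and RGSALGRLH. The family was defined after values were seen, so its shares are given without a test. It held 22 loops, of which 4 were listed in Tumour, 21 in MP and 4 in Naive libraries. It took 0, 30.3, 0, 4.63 and 0% of the TRAJ18-end reads in Tumour 1 to 5, 57.7, 82.8, 84.3, 49.2 and 50.1% in MP 1 to 5, and 0.474 to 2.06% in Naive libraries. In MP 2, where the whole end stood at 1.45% of reads, the family alone took 1.20%. The other MP libraries held 0.203 to 0.331% of it.

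Several members of the family recurred in MP. AIENRGSALGRLH had 164, 476, 256, 0 and 59 reads in MP 1 to 5 and 61 reads in Tumour 4, and was not listed in Naive libraries. Counting an unlisted loop at 3 reads per library, it was at least 53.9-fold higher in MP than in Naive (edgeR adjusted p = 0.0104). AMEDRGSALGRLH had 52, 490, 2, 120 and 75 reads in MP 1 to 5 and 2 reads in Tumour 2, at least 43.8-fold higher in MP than in Naive (edgeR adjusted p = 0.00653). These differ from AIEDRGSALGRLH by 1 residue each. AIEYRGSALGRLH, AMEHRGSALGRLH and AMEYRGSALGRLH were each listed in 3 MP libraries and in no Tumour or Naive library. They were at least 48.0-, 29.0- and 22.0-fold higher in MP than in Naive (edgeR adjusted p = 0.0264, 0.0300 and 0.0309). For AMEHRGSALGRLH and AMEYRGSALGRLH, leaving out any 1 Naive library took the edgeR adjusted p above 0.05.

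Over all joining segments, the opening AIE or AME was found in 1.26 to 12.8% of Tumour reads, 1.31 to 3.20% of MP reads and 1.72 to 2.08% of Naive reads, and the groups overlapped. Before the TRAJ33 end, loops of A, I or M, E, any residue and SNYQLI were found mostly in Naive libraries. They took none of the Tumour reads, at most 0.00921% of MP reads and 0.184 to 0.229% of Naive reads. Longer loops with the same opening are not in these shares, such as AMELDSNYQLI at 0.0289% of Tumour 2 reads and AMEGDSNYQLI at 0.0226% of MP 4 reads. These shares are descriptions, chosen after values were seen.

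A second family, found in both Tumour and MP libraries, had AAS, any residue, and SSALGRLH. Its end keeps less of the germline TRAJ18 sequence. It held 10 loops and took 0.0687, 0.0421, 0, 0.0603 and 0% of all reads in Tumour 1 to 5, and 0.0921, 0.0279, 0, 0.0574 and 0.0870% in MP 1 to 5. In Naive libraries it was listed only in Naive 1, at 0.000285%. AASASSALGRLH, its most abundant loop, had 430, 0, 0, 278 and 0 reads in Tumour 1 to 5, and 289, 34, 0, 181 and 268 reads in MP 1 to 5. It was not listed in Naive, and was at least 43.2-fold higher in MP (edgeR adjusted p = 0.0107). Tumour and MP overlapped, with a log2 fold change of -0.24 ± 2.28 (edgeR adjusted p = 0.928). AASRSSALGRLH had 186, 124, 0, 149 and 95 reads in MP 1 to 5 and was listed in no Tumour or Naive library. It was at least 31.5-fold higher in MP than in Naive (edgeR adjusted p = 0.00913) and at least 40.6-fold lower in Tumour than in MP (edgeR adjusted p = 0.0152).

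**Figure D3:**
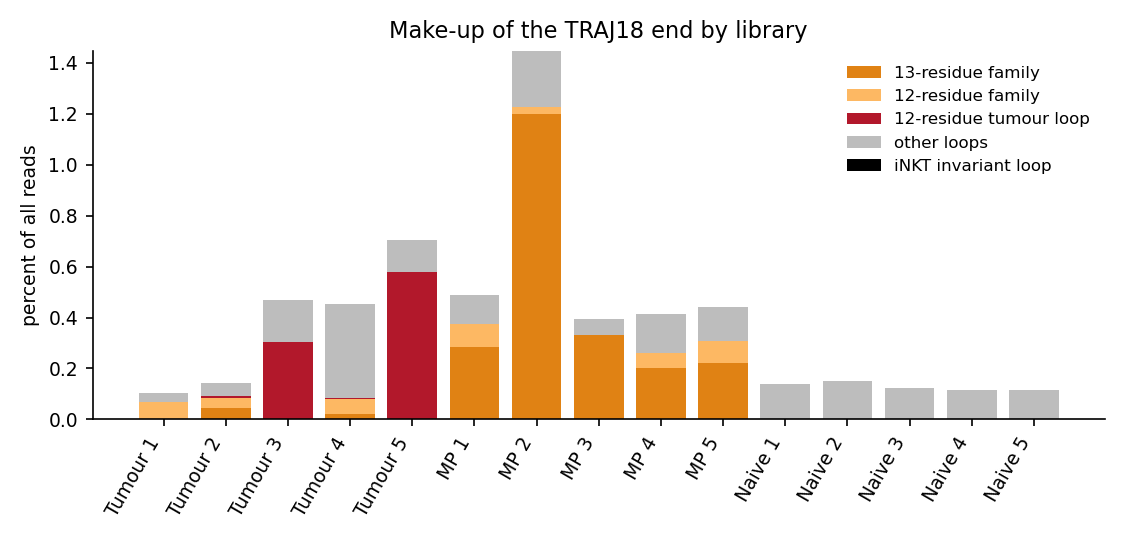
Make-up of the TRAJ18 end in each library, as percent of all reads (stacked bars). The 13-residue family is that of the leading MP loop, the 12-residue family is the AAS family, and the 12-residue tumour loop is the leading loop of Tumour 3 and Tumour 5. The iNKT loop is too rare to be seen at this scale, and the Naive bars consist almost wholly of other loops.

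The Naive TRAJ18 end had no such leader. The most abundant loop took 5.85 to 8.44% of the end in Naive libraries, and 3 different loops held that place. ATEEGSALGRLH had 4, 70, 26, 37 and 23 reads in Naive 1 to 5, and was not listed in Tumour or MP libraries. It was at least 12.9-fold lower in MP (edgeR adjusted p = 0.00226) and at least 14.5-fold lower in Tumour than in Naive (edgeR adjusted p = 0.000970). AGGSALGRLH had 53, 17, 57, 27 and 51 reads in Naive 1 to 5 and 2 reads in MP 1, with a log2 fold change of -6.58 ± 1.16 in MP (edgeR adjusted p = 0.00100). ALDRGSALGRLH and ALDLRGSALGRLH were listed in all Naive libraries and in no MP or Tumour library. Against Naive they were at least 10.5- and 7.92-fold lower in MP (edgeR adjusted p = 0.000915 and 0.00119), and at least 11.8- and 8.89-fold lower in Tumour (0.000224 and 0.000435). ADRGSALGRLH, ALMGSALGRLH and AADRGSALGRLH, also called lower in MP, had 0 MP reads. Naive libraries that listed them held 13 to 57, 2 to 17 and 5 to 26 reads. ALRGSALGRLH had 13 to 37 reads in Naive and at most 5 in MP libraries (edgeR adjusted p = 0.00938). All these loops reached the count minimum only through Naive libraries, so that the filter fixed their direction and the calls are no support.

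With edgeR, 27 of the 658 TRAJ18 loops had at least 10 reads in at least 3 MP or Naive libraries and were tested. Of these, 16 were higher and 8 lower in MP, where 12.6% of all 5954 CDR3s tested were higher and 48.1% lower. With unlisted groups set at 3 reads per library, the median log2 ratio of mean shares was 2.14 over the 27 and -2.19 over all 5954. The 16 took 0.491 ± 0.383% of MP and 0.000843 ± 0.00102% of Naive reads (SD, n = 5), a gap that follows from their choice as called higher. Naive lists lacked 13 of the 16, and MP lists lacked 6 of the 8 called lower. For loops lacking in 1 group, the filter fixed the direction. The 16 include the 8 of 22 loops of the AIE and AME family and the 4 of 10 of the AAS family that were tested. These reached the count minimum only through MP libraries, so that their direction was fixed by the filter and their number is no support. The number of loops higher in MP depended on single libraries. It was 8 to 10 with any 1 Naive library left out, and 5, 8 and 7 without MP 1, MP 2 and MP 5, and it was 1 without MP 1 and MP 5 together.

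In tumours, APDRGSALGRLH had the highest mean share of the TRAJ18 loops. It had 0, 48, 1918, 8 and 5463 reads in Tumour 1 to 5, 2 reads in MP 5, and 8 and 7 reads in Naive 3 and Naive 4. Tumour 3 and Tumour 5 held nearly all of its reads, and there it took 65.1 and 82.4% of the TRAJ18 end. It ends in the whole DRGSALGRLH of the iNKT loop, after 2 residues in place of 3. The log2 fold change was 11.21 ± 3.14 for Tumour against MP (edgeR adjusted p = 0.0152) and 8.35 ± 2.80 for Tumour against Naive (edgeR adjusted p = 0.0166). Both calls need Tumour 2, 3 and 5, since without any 1 of them the loop had 10 reads in fewer than 3 libraries and was not tested. Only tumours brought it to the minimum, so that the filter fixed the direction of both calls. AASSGSALGRLH, with 47, 44, 0, 0 and 1114 reads in Tumour 1 to 5 and 6 and 7 reads in Naive 1 and Naive 4, was not listed in MP. It was at least 59.4-fold higher in Tumour than in MP (edgeR adjusted p = 0.0183). Its log2 fold change was 5.88 ± 2.39 against Naive (edgeR adjusted p = 0.0379), a call lost without any 1 Naive library (edgeR adjusted p up to 0.0808). This loop, too, reached the minimum only through tumours.

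Other tumour loops belonged to 1 tumour. AADRGSALGRLH had 1009 reads in Tumour 4, none in the other tumours and 5 to 26 reads in Naive libraries. ASRGRGSALGRLH had 610 reads in Tumour 3 and was listed nowhere else. Of 19 TRAJ18 loops tested for Tumour against MP, 2 were higher and 13 lower, where 7.68% and 66.0% of 1666 CDR3s tested were. Without MP 1, MP 2 or MP 5 the number lower was 3, 6 and 5. Against Naive, 10 were tested, 2 were higher and 6 lower, where 3.38% and 86.7% of 4671 CDR3s tested were. Median log2 ratios at the floor were -3.79 for the 19, beside -3.76 over all CDR3s tested against MP, and -2.72 for the 10, beside -3.16 over all tested against Naive. Tumour lists lacked 11 of the 13 lower than in MP and all 6 lower than in Naive, so that the filter fixed their direction.

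The TRAJ33 end, in contrast to TRAJ18, took a smaller share of reads in MP than in the other groups. It took 0.919, 0.859, 0.722, 0.818 and 1.04% of reads in Tumour 1 to 5, 0.439, 0.384, 0.245, 0.394 and 0.497% in MP 1 to 5, and 1.12, 0.880, 1.06, 1.03 and 0.999% in Naive 1 to 5. All MP libraries lay below all others, and Tumour and Naive overlapped. The means were 0.872 ± 0.120% in Tumour, 0.392 ± 0.0933% in MP and 1.02 ± 0.0903% in Naive (SD, n = 5 each). MP was 2.60-fold below Naive (adjusted exact permutation p = 0.0119), and Tumour was 2.23-fold above MP (adjusted exact permutation p = 0.0344). The difference of Tumour from Naive, -0.148 percentage points, did not pass the test (adjusted exact permutation p = 0.116). The call for Tumour against MP was kept in 2 of 10 fits with a library left out, those without Tumour 1 or Tumour 3, and its adjusted exact permutation p reached 0.0688 in the others. The groups did not overlap in any of these fits, so that the unadjusted p was the smallest that 5 against 4 libraries allow, 0.0159. By number of distinct CDR3s, TRAJ33 made up 1.23 ± 0.342% of MP and 1.50 ± 0.105% of Naive lists (adjusted exact permutation p = 0.236). The share of lists in Tumour was 1.78 ± 0.604%.

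**Figure D4:**
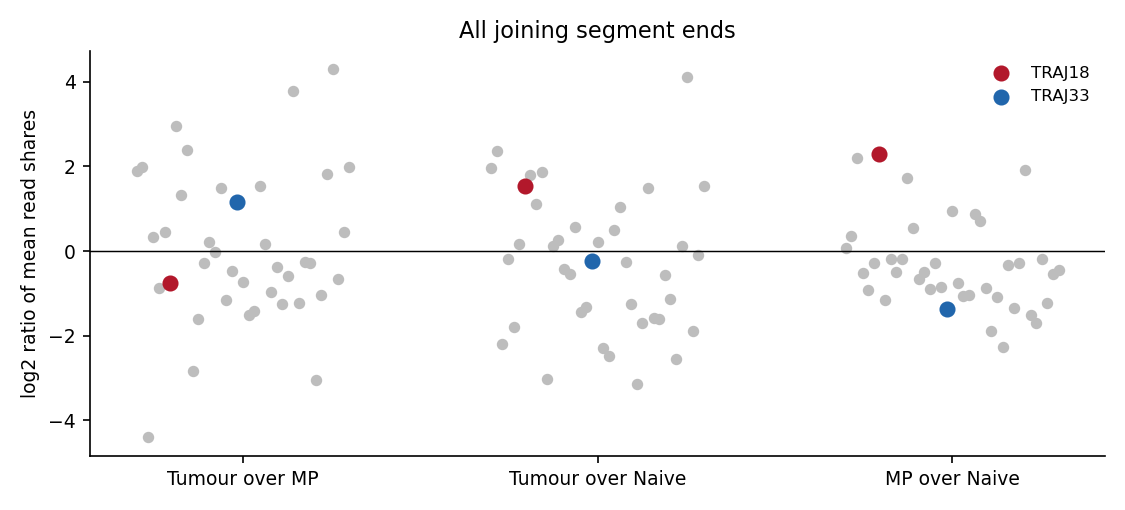
Ratio of mean read shares on a log2 scale for each of 39 joining segment ends (points) in 3 comparisons. TRAJ18 is at 2.30 for MP over Naive, the highest of the 39 with MP 2 included, and TRAJ33 at -1.38 for MP over Naive and 1.15 for Tumour over MP. The comparisons share libraries, so their points are not independent.

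Most TRAJ33-end reads of Naive libraries lay in a few shared loops. Of 1148 loops listed in Naive libraries, 813 were listed in 1 of them only, while 63 were listed in all 5 and took 70.5 to 78.6% of TRAJ33-end reads. For the TRAJ18 end, 9 of 434 were listed in all 5 Naive libraries and took 21.0 to 28.1% of reads. Over the 39 segments, the median of that share in Naive was 71.5%. TRAJ18, ranked 38 of 39 in it, also had the fewest Naive reads of the 39 segments, 633 to 972 per library against 4819 to 7885 for TRAJ33. The part of read number in this rank was not tested.

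In the other groups few loops were common to all libraries. For TRAJ33, 1 of 122 loops was listed in all tumours and 3 of 383 in all MP libraries, where they took 10.0 ± 4.62% of the end (SD, n = 5). For TRAJ18, 0 of 56 loops were listed in all tumours. In MP, 2 of 251 were listed in all libraries, AIEDRGSALGRLH and AMEDRGSALGRLH, and they took 37.5 to 70.8% of the end. Over the 39 segments, the median share of the end in loops listed in all libraries of a group was 38.4% in MP and 0% in Tumour. Over the series, 493 of the 658 TRAJ18 loops and 1010 of the 1453 TRAJ33 loops were listed in 1 library only. The same count over all CDR3s is not given here.

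AIEDSNYQLI led the TRAJ33 end in all Naive libraries. It had 1355, 893, 1184, 994 and 1026 reads in Naive 1 to 5, 4 reads in MP 5, and was listed in no other MP library and no Tumour library. It took 16.1 to 19.4% of the Naive TRAJ33 end. Its share of all reads was 0.000117 ± 0.000262% in MP, against 0.181 ± 0.0193% in Naive (SD, n = 5 each). In MP its edgeR log2 fold change stood at -10.38 ± 1.50 (SE), adjusted p = 0.000662. In Tumour it was at least 463-fold lower than in Naive (edgeR adjusted p = 1.27e-05). AIMDSNYQLI and AIVDSNYQLI, which differ from it by 1 residue, took 0.0559 ± 0.00691% and 0.0531 ± 0.00909% of Naive reads and were listed in no MP or Tumour library. They were at least 128- and 121-fold lower in MP (edgeR adjusted p = 0.000662 each). AIEDSNYQLI, AIMDSNYQLI and AIVDSNYQLI reached the count minimum only through Naive libraries, so that the filter fixed their direction. AILDSNYQLI, at 0.0222 ± 0.00595% of Naive reads, had 32 reads in MP 5 and none in other MP libraries, and did not pass the test (log2 fold change -4.54 ± 1.81, edgeR adjusted p = 0.0510).

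Loops of AI, any residue and DSNYQLI together took 27.1 to 34.2% of the Naive TRAJ33 end. They took at most 1.06% of that end in MP, and no tumour listed one. This group of 12 loops was chosen after values were seen, and the MAIT loop, which opens with AV, is not in it.

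Other abundant Naive loops opened with AL or AF. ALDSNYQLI made up 0.00207 ± 0.00200% of MP reads, against 0.0998 ± 0.0124% in Naive, and the log2 fold change of MP against Naive was -5.58 ± 1.41 (edgeR adjusted p = 0.00738). Its log2 fold change in Tumour against Naive was -5.01 ± 2.13 (edgeR adjusted p = 0.0455), a call lost without any 1 of the Naive libraries or without Tumour 1, 3, 4 or 5. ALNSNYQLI made up 0.000473 ± 0.000835% of MP reads, against 0.0389 ± 0.0104% in Naive, and its log2 fold change was -6.27 ± 1.53 (edgeR adjusted p = 0.00617). AFMDSNYQLI did not differ detectably between MP and Naive, at 0.0255 ± 0.0309% and 0.0271 ± 0.00938% of reads (log2 fold change -0.08 ± 1.52, edgeR adjusted p = 0.966). It had 225, 515, 0, 0 and 181 reads in MP 1 to 5, against 222, 65, 207, 171 and 158 reads in Naive 1 to 5. ALMDSNYQLI had 303 reads in Tumour 1, 630 in Tumour 4, 9 reads in MP 5 and none in the other MP libraries, and 179 to 284 reads in Naive libraries. It was called lower in MP than in Naive (edgeR adjusted p = 0.00511), with a log2 fold change of -6.98 that was -10.85 without MP 5. Against MP, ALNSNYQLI and ALMDSNYQLI could meet the count minimum only through Naive libraries, as could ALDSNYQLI against Tumour. The filter thus favoured a lower value outside Naive, and these calls are no support for one.

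MP libraries had no common TRAJ33 leader. A different loop led the end in each of MP 1 to 5, and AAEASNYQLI, AFMDSNYQLI, ADSNYQLI, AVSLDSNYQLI and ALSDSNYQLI held that place in turn, at 5.99, 19.7, 22.8, 21.7 and 6.89% of the end. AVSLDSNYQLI had 17, 0, 0, 492 and 3 reads in MP 1 to 5 and at most 7 in Naive libraries, so that its mean rested on MP 4.

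Some TRAJ33 loops were more abundant in MP than in Naive. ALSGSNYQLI was listed in all MP libraries, with 187, 114, 81, 20 and 233 reads in MP 1 to 5, and had 2 and 7 reads in Naive 3 and Naive 4. Its log2 fold change was 5.70 ± 1.50 (edgeR adjusted p = 0.00944). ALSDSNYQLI, with 100, 55, 99, 81 and 234 reads in MP 1 to 5 against 26, 9, 33, 27 and 23 in Naive 1 to 5, had a log2 fold change of 2.07 ± 0.66 (edgeR adjusted p = 0.0198), and the call was lost when low counts were kept (edgeR adjusted p = 0.228). It also had 517 reads in Tumour 3. ARGSNYQLI and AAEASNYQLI were not listed in Naive and were at least 16.5- and 39.7-fold higher in MP (edgeR adjusted p = 0.0112 and 0.0269). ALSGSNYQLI, ARGSNYQLI and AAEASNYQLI reached the count minimum only through MP libraries, so that the filter fixed their direction. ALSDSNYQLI reached it in Naive libraries as well. ADSNYQLI, with 183, 311, 375, 0 and 113 reads in MP 1 to 5 and up to 28 in Naive libraries, did not pass the test (log2 fold change 3.31 ± 1.51, edgeR adjusted p = 0.0827).

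With edgeR, 72 of the 1453 TRAJ33 loops were tested for MP against Naive. Of these, 7 were higher and 40 lower in MP, that is 9.72% and 55.6% of those tested, beside the 12.6% and 48.1% of all CDR3s tested. The median log2 ratio at the floor was -2.23 over the 72 and -2.19 over all CDR3s tested. Together the 40 made up 0.642 ± 0.0510% of reads in Naive and 0.00666 ± 0.00563% in MP. Since they were picked as called lower, this difference is no support for a fall. MP lists lacked 28 of the 40, and for those the filter fixed the direction. Without MP 1, 4 loops were higher.

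In tumours the TRAJ33 end was led by loops that were rare or not listed elsewhere. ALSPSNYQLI had 1822, 1508, 0, 3502 and 0 reads in Tumour 1 to 5 and was listed in no MP or Naive library. It took 0.173 ± 0.181% of Tumour reads (SD, n = 5), at least 396-fold more than in MP (edgeR adjusted p = 0.0164) and at least 345-fold more than in Naive (edgeR adjusted p = 0.0155). With Tumour 1, 2 or 4 left out it had reads in fewer than 3 libraries and was not tested. It reached the count minimum only through Tumour libraries, so that the filter fixed its direction and these calls are no support for it. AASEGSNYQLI was the 1 member of either end that all tumours listed. It had 583, 254, 587, 323 and 78 reads in Tumour 1 to 5, 69, 0, 0, 149 and 16 reads in MP 1 to 5, and was not listed in Naive. It was at least 100.4-fold higher in Tumour than in Naive (edgeR adjusted p = 0.000172), a direction that the filter also fixed. Against MP, where the libraries overlapped with Tumour, the log2 fold change was 2.80 ± 1.92 (edgeR adjusted p = 0.206).

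The other leading tumour loops belonged to 1 or 2 tumours. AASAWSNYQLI had 2011 reads in Tumour 1 and 1678 in Tumour 2, and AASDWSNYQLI had 52 in Tumour 2 and 3479 in Tumour 5. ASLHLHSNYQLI had 6022 reads in Tumour 5, which is 61.1% of the TRAJ33 end there, and VLGDWRSNYQLI had 255 and 1168 reads in Tumour 2 and Tumour 3. None of these 4 loops was listed in MP or Naive. Of 20 loops tested for Tumour against MP, 1 was higher and 15 lower, where 7.68% and 66.0% of all CDR3s tested were. Without MP 1 or MP 5 the number lower was 8 and 7. The median log2 ratio at the floor was -3.47 over the 20 and -3.76 over all CDR3s tested. Against Naive, 61 were tested, 2 were higher and 53 lower, which is 3.28% and 86.9% beside 3.38% and 86.7% of all CDR3s tested. Tumour lists lacked 14 of the 15 lower than in MP and 50 of the 53 lower than in Naive, so that the filter fixed their direction.

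The share of TRAJ33-end reads that keep germline residues before the shared end differed between the groups. The germline TRAJ33 segment places the residues M and D before SNYQLI, and the MAIT loop keeps the D. Loops with DSNYQLI, with or without the M, took 17.0, 20.9, 37.1, 18.0 and 0% of TRAJ33-end reads in Tumour 1 to 5. They took 55.5, 57.2, 80.2, 65.0 and 58.8% in MP 1 to 5, and 81.2, 83.0, 82.9, 80.6 and 81.4% in Naive 1 to 5. The 3 groups did not overlap in this share, which was described without a test, though MP 3 lay close below Naive 4. In tumours the reads lay in few loops, at an effective number of 2.33 to 14.8. The part of abundant loops in this share was not tested. By number of distinct loops the D was kept in 0 to 50% in Tumour, 47.4 to 64.7% in MP libraries and 65.7 to 67.8% in Naive ones, so that Tumour and MP overlapped. Loops with both M and D took 12.9 to 25.3% of the end in MP and 22.8 to 25.1% in Naive libraries.

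**Figure D5:**
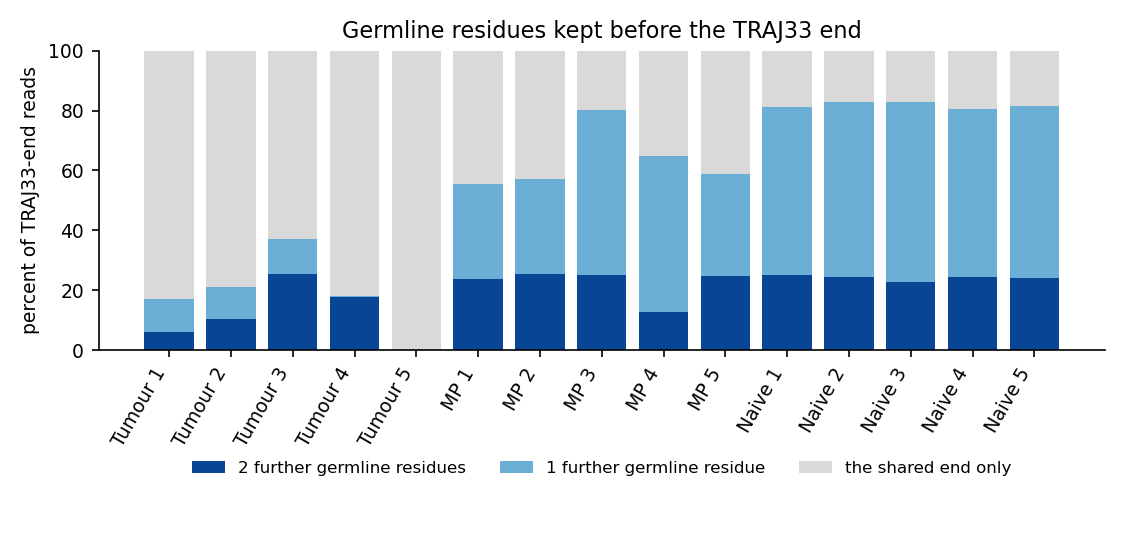
Percent of TRAJ33-end reads in each library that keep 2, 1 or none of the germline residues before the shared end (stacked bars, sum of 100%). In Naive libraries the shared end alone holds 17.0 to 19.4% of reads, and in tumours 62.9 to 100%.

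Loop length set the 2 ends apart as well. Among TRAJ18-end reads, loops of 13 residues, the length of the iNKT loop, took 1.40, 32.2, 20.9, 29.2 and 0% in Tumour 1 to 5, 61.9, 86.3, 91.9, 57.2 and 55.3% in MP 1 to 5, and 12.5 to 26.9% in Naive libraries. All MP libraries were above all others. Most of these MP reads were the AIE and AME family. Loops that keep DRGSALGRLH, as the iNKT loop does, took 25.2 to 82.5% of the end in Tumour, 42.4 to 78.1% in MP libraries and 26.6 to 42.7% in Naive ones. Among TRAJ33-end reads, loops of 10 residues, the length of the MAIT loop, took 0 to 79.2% in Tumour, 22.0 to 60.2% in MP libraries and 48.6 to 56.5% in Naive ones, and the groups overlapped.

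Some loops were shared between groups, and shared loops could carry many reads. The same shares over all CDR3s are not given here, so that no degree of sharing can be called particular to these ends. List length also differed, from 934 distinct CDR3s in Tumour 3 to 29559 in Naive 1, and its part in the sharing was not tested. For TRAJ18, 61 loops were listed in both MP and Naive, 24.3% of the MP and 14.1% of the Naive loops. They held 60.9 ± 10.6% of MP and 23.5 ± 6.63% of Naive TRAJ18-end reads (SD, n = 5 each). Tumour and MP shared 15 loops, 26.8% of the Tumour and 5.98% of the MP loops, which held 60.4 ± 24.3% of Tumour and 62.5 ± 13.6% of MP TRAJ18-end reads. For TRAJ33, MP and Naive shared 155 loops, 40.5% of the MP and 13.5% of the Naive loops, with 63.2 ± 6.76% of MP and 58.0 ± 1.38% of Naive TRAJ33-end reads. Tumour and MP shared 28, 23.0% of the Tumour and 7.31% of the MP loops, with 19.7 ± 17.5% of Tumour and 13.8 ± 7.61% of MP TRAJ33-end reads. In all 3 groups, 6 TRAJ18 and 21 TRAJ33 loops were listed.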

How the data were processed

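TCR alpha CDR3s were amplified from RNA of sorted cells by arm-PCR (iRepertoire) and sequenced, per the labels' protocols. The authors deposited 1 list per library, of CDR3 peptides and their whole-number read count. For aligner, CDR3 caller, genome build, filters and molecular identifiers, the entry is: not given in the sources used here. All lists start at 2 reads, so an unlisted CDR3 had fewer, unless another filter removed it. Without molecular identifiers reads are not independent molecules, and intervals and floors cover counting error only. Wilson 95% intervals of the shares had half-widths of at most 0.0284 percentage points for TRAJ18 and 0.0267 for TRAJ33. The series' design text states separate mice, and p-values measure the spread between libraries. In 30 within-group pairs of libraries, 0 agreed within sampling noise (chi-square p above 0.05).

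Members and lists were chosen with earlier results of these data known. Segment ends came from general knowledge, the names were found in the RefSeq table of GRCm38.p6, and 39 ends that could be told apart held 89.6 to 98.1% of reads. Counts were tested with edgeR 4.0.16 (R 4.3.3; quasi-likelihood, robust, total reads as library size, a minimum of 10 reads in 3 or more libraries), each pair of groups apart, with Benjamini-Hochberg adjustment over all CDR3s tested. Shares were tested by exact two-sided permutation over the 252 splits of 5 against 5 (scipy 1.17.1), whose smallest p is 0.00794, adjusted over 39 ends or over 6 tests of invariant loops. A group in which a loop is not listed was set to 3 reads per library for fold bounds. Named CDR3s were chosen by rule: the invariant loops, the 10 (TRAJ33) or 5 (TRAJ18) loops with the highest mean share in each group, the highest in any 1 library, and every called loop, or the 5 most abundant where more than 10 of an end were called in 1 direction. The values of some were left to ranges and counts. Alternatives were TMM, DESeq2 1.42.0, other count filters, a replicate block, leaving out each library, and, chosen after seeing the data, leaving out MP 1 and MP 5, dropping loops of fewer than 10 reads and folding possible reading errors. Scripts were tested on simulated data.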

Additional observations from a re-analysis of the deposited data

Results flagged for a closer look

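In 36 groups of 5 values, the highest or lowest library was set against the others by its gap to the nearest one over the group's range (Dixon's critical value 0.71), and 4 stood apart. Chance alone gives about 1 in 20. MP 2 held 1.45% of reads with the TRAJ18 end, against 0.393 to 0.490% in the other MP libraries. The same library held 1.20% of reads in the family of AIEDRGSALGRLH, against 0.203 to 0.331% in the others. Tumour 2 held 0.00771% of reads of the MAIT loop, which no other tumour listed. Naive 1 held 0.000285% of reads of the AAS family, which is 2 reads, the lowest count in the lists, and no other Naive library listed the family. In these last 2 groups the other libraries are at 0, so that any listed value would stand apart.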

How the results depend on the processing

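No result changed direction where a called value was recomputed. Whether the replicate numbers pair the samples is not known. The correlations of same-numbered libraries were 0.0125 to 0.0470 for MP and Naive, -0.0363 to 0.00147 for Tumour and MP, and -0.00686 to 0.0214 for Tumour and Naive. These values show no pairing but cannot exclude one, since no libraries known to be paired were there to compare. With the replicate block, where the smallest exact p of 5 sign changes is 0.0625, the values stayed and the adjusted exact permutation p was 0.0813 for TRAJ18 in MP minus Naive (0.508 percentage points), 0.0813 for TRAJ33 in MP minus Naive (-0.628), 0.244 for TRAJ33 in Tumour minus MP (0.481), and 0.188 for the MAIT loop in MP minus Naive (-0.0116) and in Tumour minus Naive (-0.0105). By distinct CDR3s, TRAJ33 gave -0.268 points for MP minus Naive and 0.551 for Tumour minus MP, with adjusted exact permutation p of 0.236 and 0.248. Without MP 1 and MP 5, TRAJ33 in Tumour minus MP was 0.531 points (adjusted exact permutation p = 0.139). With 1 library left out, TRAJ33 in Tumour minus MP lay between 0.438 and 0.518 points, the MAIT loop between -0.0131 and -0.00995 for MP minus Naive, and between -0.0120 and -0.00888 for Tumour minus Naive.

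Counts of called loops moved most with the count filter, which changes how many loops are tested. With at least 50 reads, TRAJ18 loops higher and lower numbered 7 and 1 in MP against Naive (16 and 8 as reported), 0 and 4 in Tumour against MP (2 and 13), and 0 and 1 in Tumour against Naive (2 and 6). TRAJ33 loops numbered 3 higher and 13 lower in MP against Naive (7 and 40), 6 lower in Tumour against MP (15), and 11 lower in Tumour against Naive (53). With no filter, TRAJ18 gave 31 and 59, 5 and 42, and 86 lower in the same order, and TRAJ33 gave 27 and 227, 15 and 59, and 6 and 313. With the replicate block, 1 TRAJ18 loop was higher and 1 lower in Tumour against MP, 0 higher in Tumour against Naive, and 1 TRAJ33 loop lower in Tumour against MP. TMM and DESeq2 each called 1 TRAJ18 loop higher in Tumour against Naive. Without MP 1 and MP 5, TRAJ18 gave 1 higher in MP against Naive, and 0 higher and 0 lower in Tumour against MP. TRAJ33 gave 2 higher in MP against Naive, and 0 higher and 1 lower in Tumour against MP.

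With 1 library left out, TRAJ18 counts were 5 to 15 higher and 7 to 8 lower in MP against Naive, 0 to 2 higher and 3 to 14 lower in Tumour against MP, and 0 to 2 higher and 6 to 7 lower in Tumour against Naive. For TRAJ33 they were 4 to 10 and 27 to 46, 0 to 1 and 7 to 16, and 1 to 2 and 37 to 54. For every count of 0 here edgeR had 0 loops at an unadjusted p under 0.05 in that direction, except for 1 TRAJ18 and 1 TRAJ33 loop higher in Tumour without MP 1 and MP 5. DESeq2 was not run in these settings. Among named loops, 933 refits kept their call and 74 lost it. Refits in which a loop fell below the count minimum and was not tested are in neither number. With at least 50 reads, 41 calls were kept and 1 lost, beside 68 and 3 with TMM. Without loops of fewer than 10 reads, the Naive TRAJ33 effective number was 26.8 in place of 65.9, and the share keeping the D was 85.5 in place of 81.8%. The causes of these changes were not tested, apart from the number of loops or libraries entering each fit.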
